A study of Mus musculus with 9 samples.

Results

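Fat cell genes were examined in 9 RNA libraries of mouse myocardium, in order to read how much fat cell RNA each heart library held. The 9 genes were picked by symbol, as white and brown fat genes, from the 22851 genes of the count table, and all 9 had a row: Adipoq, Lep, Retn, Cfd, Plin1, Cidec, Cidea, Fabp4 and Ucp1. All libraries came from C57BL/6 mice, described in the methods as male C57BL/6J mice of 6 to 8 weeks when supplied. They were older when the hearts were taken. Each group had 3 libraries. CK was the normal control group without diabetes, which according to the methods was injected with citrate buffer. DCM was the diabetic cardiomyopathy model, in which a single streptozotocin injection preceded the taking of the heart by 12 weeks. SPM mice received the same streptozotocin and, in addition, spermine, daily for the 2 weeks before it and then on alternate days until the end of the 12 weeks. The model rests on damage to the pancreatic islets by streptozotocin, and it is unsettled whether a library held 1 mouse (3 mice per group are given) or a pool of 6 hearts, so a p-value measures only the spread between these libraries.

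Fat cells store triglyceride in a single large droplet (white fat) or in many small ones beside dense mitochondria (brown fat). White fat cells also secrete hormones, and brown fat cells burn fuel for heat. Fat lies around the heart, under the outer layer of the heart and around the great vessels, so a heart sample can carry some of it. Several genes that mark fat cells within fat tissue are used by other cells too: Fabp4 by capillary endothelium, and droplet genes by heart muscle, which burns fatty acids.

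Heart muscle genes filled the libraries. All 9 heart muscle markers in the table reached 1 CPM, a count relative to its library's total, in each library, with summed levels of 44690 to 59070. The extraction protocol speaks of retinas, but of the 7 retina markers none reached 1 CPM in any library and their sum stayed between 0.584 and 1.79. Total counts were 29901300 to 39718680 per library. Levels are given as normalized CPM, the count divided by the library total and by a scaling factor of the trimmed mean of M values (TMM, 0.967 to 1.05).

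Several libraries stood apart. CK replicate 2 held 4 of 6 lung markers at 1 CPM or more, with a lung sum of 52.3 against 0.0956 to 0.8002 in the other libraries, and Sftpc, a surfactant protein, and Scgb1a1, a secretory protein of the airway, had 15.0 and 30.8. The summed level of 10 liver markers was 363.7 in SPM replicate 1, 180.5 in SPM replicate 2 and 49.3 in CK replicate 2, and 14.1 to 31.5 elsewhere. Elsewhere most of that sum was the marker Ahsg, at 9.76 to 30.0, and the albumin gene Alb had 0.264 to 2.39, against 28.2 in CK replicate 2. SPM replicate 2 lay between SPM replicates 1 and 3 for 68.6% of 12642 genes, whereas each of the other 8 libraries lay between its group partners for 14.6% to 40.8%. A blend of SPM replicate 1 (45.0%) with SPM replicate 3 gave the counts of the 8 members detected there to within 0.743 counting standard deviations, so SPM replicate 2 may not be an independent library. Results are therefore given also without CK replicate 2 and without SPM replicate 2 where they changed.

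The sequences just upstream of the start of 4 members whose levels moved together over the libraries are shown with that of Ucp1, which did not follow them. Each is the 250 bases before the RefSeq start, on GRCm38.p6 and 5′ to 3′ on the gene's strand, and of the 9 members 7 had an entry. Capitals mark CCAAT, read on either strand, in Adipoq. In Ucp1 they mark AGGTCA, a motif that nuclear receptors bind. The regions are chr16:23146286-23146535 (plus strand) for Adipoq, chr10:79890603-79890852 (plus) for Cfd, chr7:79732777-79733026 (minus) for Plin1, chr6:113435761-113436010 (minus) for Cidec and chr8:83290098-83290347 (plus) for Ucp1.
Adipoq: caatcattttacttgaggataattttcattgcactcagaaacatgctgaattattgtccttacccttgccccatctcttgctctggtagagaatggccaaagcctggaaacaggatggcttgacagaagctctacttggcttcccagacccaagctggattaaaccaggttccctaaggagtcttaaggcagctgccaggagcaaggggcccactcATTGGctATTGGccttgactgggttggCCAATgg
Cfd: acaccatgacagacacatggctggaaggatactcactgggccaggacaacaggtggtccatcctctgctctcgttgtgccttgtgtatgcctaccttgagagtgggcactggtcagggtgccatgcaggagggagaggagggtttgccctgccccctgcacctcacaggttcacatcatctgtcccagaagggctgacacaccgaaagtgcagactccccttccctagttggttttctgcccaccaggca
Plin1: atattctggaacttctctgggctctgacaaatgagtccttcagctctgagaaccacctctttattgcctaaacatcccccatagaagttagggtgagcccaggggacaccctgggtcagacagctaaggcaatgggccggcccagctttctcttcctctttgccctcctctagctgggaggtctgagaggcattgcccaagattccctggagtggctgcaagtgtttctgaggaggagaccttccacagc
Cidec: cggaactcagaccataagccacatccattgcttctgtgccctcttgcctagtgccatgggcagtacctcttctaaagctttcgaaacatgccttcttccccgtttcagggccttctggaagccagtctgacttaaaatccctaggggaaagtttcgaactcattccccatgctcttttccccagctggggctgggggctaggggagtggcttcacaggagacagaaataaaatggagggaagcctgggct
Ucp1: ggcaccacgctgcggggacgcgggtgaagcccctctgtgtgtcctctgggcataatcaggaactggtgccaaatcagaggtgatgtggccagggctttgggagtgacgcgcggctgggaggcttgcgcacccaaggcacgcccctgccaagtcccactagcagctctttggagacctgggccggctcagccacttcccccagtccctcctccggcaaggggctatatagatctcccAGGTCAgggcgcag
Adipoq had 3 CCAAT matches, whose leftmost bases lay 7, 27 and 34 bases before the start, and the leftmost base of AGGTCA in Ucp1 lay 14 bases before it. Of 32536 promoters of this length, 33.8% held CCAAT, 14.0% held AGGTCA and 22.7% held TATAA on either strand. The windows shown for Cfd, Plin1 and Cidec held none of the 3 motifs. The listed start of Plin1 lay 127 bases from the GENCODE start, that of Ucp1 lay 4 bases from it, and those of Adipoq, Cfd and Cidec coincided with it. Cidec had a second entry, with a start 996 bases from the GENCODE start, which is not shown.

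The members differed in their pattern over the libraries. Fabp4 was abundant and even, Cidea was even within CK with all CK libraries below those of both diabetic groups, and Cfd, Adipoq, Cidec and Plin1 varied over 6.44-fold to 9.91-fold, most widely within CK. Per length, as FPKM (fragments scaled to gene length and library total), the mean level over 9 libraries was 212.5 for Fabp4, 36.0 for Cfd, 27.5 for Cidea, 3.84 for Adipoq, 3.36 for Cidec, 1.497 for Plin1, 0.891 for Retn, 0.160 for Ucp1 and 0.0286 for Lep. The range of Fabp4 (200.9 to 235.1 FPKM) overlapped with that of no other member. FPKM rests on the deposited length, which for Fabp4 was 4231 bases, the longest of the members. Whether that length suits the transcript counted was not tested. Cfd (11.3 to 114.4) overlapped with Cidea (21.3 to 35.9), and Adipoq (1.06 to 10.8), Cidec (1.32 to 8.57) and Plin1 (0.356 to 3.55) overlapped with each other. Read library by library, Plin1 was below both Adipoq and Cidec in each of them. The order of Cfd and Cidea changed between libraries, as did that of Adipoq and Cidec. Lep and Ucp1 were at or near 0.

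**Figure D1:**
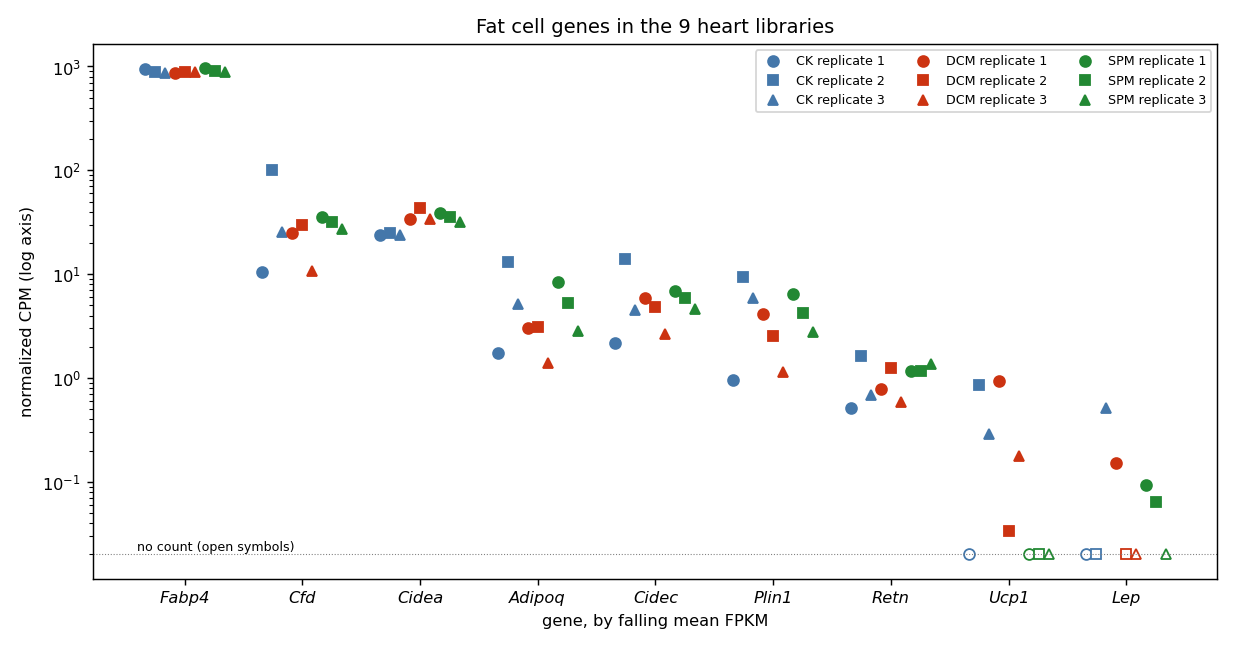
Normalized CPM of the 9 members in each of the 9 libraries on a log axis, ordered from left to right by mean FPKM, with colours for CK, DCM and SPM, symbols for the replicate and open symbols for no count. Fabp4 and Cidea form tight clusters, Cfd, Adipoq, Cidec and Plin1 spread over 6.44-fold to 9.91-fold with CK replicate 2 highest, and Ucp1 has no count in any SPM library.

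Hormones come first. Adipoq (ENSMUSG00000022878, chr16:23146536-23158028) encodes adiponectin, a hormone that fat cells release. Its normalized CPM was 1.75, 13.2 and 5.19 in CK replicates 1, 2 and 3, 3.07, 3.08 and 1.41 in DCM and 8.46, 5.24 and 2.86 in SPM, from counts of 48 to 473. CK replicate 2 was highest, at 4.29 times the median of the other 8 libraries, and DCM replicate 3 was lowest. The ranges of all 3 groups overlapped.

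Mean Adipoq levels were 6.71 ± 5.87 in CK, 2.52 ± 0.962 in DCM and 5.52 ± 2.81 in SPM (SD, n = 3). By edgeR's quasi-likelihood test the log2 fold change was -1.42 (SE 0.534, adjusted p = 0.119) in DCM compared to CK, 1.13 (SE 0.384, adjusted p = 0.066) in SPM compared to DCM and -0.30 (SE 0.618, adjusted p = 0.747) in SPM compared to CK. None was called, which took an adjusted p under 0.05 together with at least 1.5-fold change. Without CK replicate 2 the log2 fold change was -0.46 in DCM compared to CK and turned to 0.66 in SPM compared to CK. In SPM compared to DCM, Adipoq passed with DESeq2 (adjusted p = 0.0156), with no filter on low counts (adjusted p = 0.0338) and without SPM replicate 3 (1.44, adjusted p = 0.00816), and had 0.68 without SPM replicate 1 (adjusted p = 0.178). In DCM compared to CK it passed without CK replicate 1, at -1.87 (adjusted p = 0.00301).

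Retn (ENSMUSG00000012705, chr8:3655770-3660110) encodes resistin, a hormone of white fat cells in mice. It had 0.510, 1.65 and 0.681 normalized CPM in CK, 0.779, 1.25 and 0.586 in DCM and 1.17, 1.16 and 1.37 in SPM. The SPM libraries lay close together, whereas CK and DCM were spread more widely, and the groups overlapped. The log2 fold change in SPM compared to DCM was 0.51 (SE 0.349) with an adjusted p of 0.332 by edgeR.

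Lep (ENSMUSG00000059201, chr6:29060220-29073877) encodes leptin, the hormone that reports fat stores to the brain. Its counts were 0, 0 and 16 in CK, 6, 0 and 0 in DCM and 3, 2 and 0 in SPM. It had no count in 5 libraries, where 3 counts (0.0858 to 0.1003 CPM, covering counting error only) is the upper limit that a count of 0 allows. CK replicate 2, the library with the most Adipoq, had no Lep count, and CK replicate 3 had the most.

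Cfd (ENSMUSG00000061780, chr10:79890853-79892655) encodes complement factor D, or adipsin, a protease that fat cells secrete. Its normalized CPM was 10.52, 99.9 and 25.2 in CK, 24.9, 29.7 and 10.6 in DCM and 35.5, 31.6 and 27.4 in SPM. CK held both the highest library and, in CK replicate 1, the lowest, so that CK enclosed the other groups. The mean was 45.2 ± 48.0 in CK, 21.7 ± 9.89 in DCM and 31.5 ± 4.06 in SPM (SD, n = 3). Neither DCM compared to CK (log2 fold change -1.07, SE 0.592, adjusted p = 0.298) nor SPM compared to DCM (0.54, SE 0.277, adjusted p = 0.196) passed in edgeR. Without CK replicate 2 the sign in DCM compared to CK turned, to 0.28, and that in SPM compared to CK turned from -0.54 to 0.81.

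Droplet proteins follow. Plin1 (ENSMUSG00000030546, chr7:79720218-79732903) encodes perilipin 1, which coats the fat cell droplet and controls access of lipases to it. Its levels were 0.956, 9.48 and 5.87 normalized CPM in CK, 4.17, 2.54 and 1.14 in DCM and 6.46, 4.25 and 2.80 in SPM. CK replicate 2 was highest and CK replicate 1 lowest, 9.91-fold apart, and the groups overlapped. The log2 fold change was -1.05 (SE 0.592, adjusted p = 0.307) in DCM compared to CK and 0.77 (SE 0.412, adjusted p = 0.21) in SPM compared to DCM by edgeR. In DCM compared to CK it was -0.37 without CK replicate 2 (adjusted p = 0.809), and it passed without CK replicate 1, at -1.54 (adjusted p = 0.0128).

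Cidec (ENSMUSG00000030278, chr6:113424634-113435760) encodes a protein that moves lipid between touching droplets so that they grow. Its normalized CPM was 2.17, 14.0 and 4.54 in CK, 5.96, 4.81 and 2.67 in DCM and 6.96, 5.89 and 4.62 in SPM. CK replicate 2 again stood at the top, at 2.96 times the median of the other 8 libraries, and CK replicate 1 at the bottom. In edgeR the log2 fold change was -0.63 (SE 0.501, adjusted p = 0.489) in DCM compared to CK and turned to 0.42 without CK replicate 2, and it was 0.38 (SE 0.265, adjusted p = 0.343) in SPM compared to DCM.

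Cidea (ENSMUSG00000024526, chr18:67343604-67367785), a relative of Cidec that works on the droplets of brown fat cells, behaved otherwise. It had 23.8, 24.99 and 24.0 normalized CPM in CK, 34.4, 43.2 and 34.0 in DCM and 38.4, 35.3 and 31.5 in SPM. Each DCM and each SPM library was above each CK library, and DCM and SPM overlapped. CK replicate 2, the library richest in Adipoq, had 0.731 times the median Cidea level of the other 8 libraries, most of which were diabetic. Within CK it was slightly the highest, at 24.99 against 23.8 and 24.0.

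The mean of Cidea was 24.2 ± 0.654 in CK, 37.2 ± 5.23 in DCM and 35.1 ± 3.44 in SPM (SD, n = 3). Cidea rose in DCM compared to CK by 0.62 on the log2 scale (SE 0.101, 1.53-fold, adjusted p = 0.00226 by edgeR). It was the only one of the 7 members tested that was called, where 2.03% of 14402 genes were called as higher and 2.31% as lower. The call was lost without DCM replicate 2 (0.49, adjusted p = 0.00828) and with limma on log2(FPKM + 0.1) (0.52), in both cases because the fold change fell under 1.5. For SPM compared to CK the log2 fold change was 0.53 (SE 0.083, 1.44-fold, adjusted p = 0.00337), past the adjusted p and short of the fold change, where 27.4% of 14574 genes passed the adjusted p alone. Between SPM and DCM it was -0.083 (SE 0.108, adjusted p = 0.62).

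Cidea overlaps 500 bases of B430212C06Rik, a transcript on the opposite strand. That transcript had 2164 counts over the 9 libraries against 9500 of Cidea, and its mean was 6.51 ± 0.415 normalized CPM in CK, 9.04 ± 0.400 in DCM and 6.28 ± 0.852 in SPM (SD, n = 3). Whether the counting used strand is not given in the sources used here, so reads of the pair may not be separated. By edgeR the transcript's log2 fold change was 0.48 in DCM compared to CK (adjusted p = 0.0395), -0.53 in SPM compared to DCM (adjusted p = 0.0263) and -0.055 in SPM compared to CK (adjusted p = 0.795), none of them past the fold change.

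Fabp4 (ENSMUSG00000062515, chr3:10204088-10208576) encodes a carrier of fatty acids that is abundant in fat cells and in capillary endothelium. Its normalized CPM was 948.4, 887.5 and 865.5 in CK, 872.8, 879.3 and 888.1 in DCM and 960.4, 907.8 and 876.3 in SPM. All libraries lay within 1.11-fold, and CK replicate 2 was at 1.00 times the median of the others. The summed level of 12 endothelial markers lay between 2195 and 2746. No comparison passed, with log2 fold changes of -0.033 (SE 0.072, adjusted p = 0.836), 0.055 (SE 0.069, adjusted p = 0.604) and 0.017 (SE 0.059, adjusted p = 0.846) for DCM compared to CK, SPM compared to DCM and SPM compared to CK in edgeR.

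Ucp1 (ENSMUSG00000031710, chr8:83290352-83298452) encodes the uncoupling protein that lets brown fat mitochondria release heat. Its counts were 0, 31 and 9 in CK, 37, 1 and 6 in DCM and 0, 0 and 0 in SPM. DCM replicate 1 and CK replicate 2 held most of them, DCM and SPM did not overlap and CK and SPM did. Ucp1 did not pass the filter on low counts and so had no main test.

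Over the 3 SPM libraries, 96753799 counts held no Ucp1, which allows at most 0.031 CPM (3 counts over the group). The 44 counts of DCM gave 0.418 CPM, 13.5 times that limit, and 3.45 times it without DCM replicate 1 (7 counts). The 40 counts of CK gave 0.426 CPM, 13.8 times the limit, and 4.85 times it without CK replicate 2 (9 counts). These ratios pool the libraries of a group, SPM replicate 2 included. They allow for counting error in SPM but not in DCM or CK, so they are not lower bounds on the difference. They do not hold for each library, as DCM replicate 2 had 1 Ucp1 count and CK replicate 1 had 0. With no filter, edgeR gave an adjusted p of 0.0182 for SPM compared to DCM and 0.0352 for SPM compared to CK. DESeq2 gave an unadjusted p of 0.00035 with no adjusted p for the former, and an adjusted p of 0.27 for the latter. SPM replicate 1 had 275 Adipoq counts and 0 Ucp1 counts, against 122 and 37 in DCM replicate 1.

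As a share of all counts, the 9 members held between 0.0917% (DCM replicate 3, Wilson 95% interval 0.0907% to 0.0927%) and 0.111% (CK replicate 2, 0.110% to 0.112%), nearly all of it Fabp4. Without Fabp4 and Cidea the other 7 members held 0.00167%, 0.0147% and 0.00436% in CK, 0.00400%, 0.00400% and 0.00162% in DCM and 0.00570%, 0.00470% and 0.00381% in SPM. On that measure CK replicate 2 was highest, CK replicate 1 and DCM replicate 3 were lowest, and the 3 groups overlapped. These intervals cover counting error only. In bulk RNA fewer fat cells and less RNA of a gene per fat cell cannot be told apart.

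Ratios among the members varied between libraries. Cfd had between 4.19 counts per Adipoq count (SPM replicate 1, exact 95% interval 3.67 to 4.8) and 9.63 (DCM replicate 2, 7.75 to 12.1). Cidec had 0.822 (0.686 to 0.984) per Adipoq count in SPM replicate 1 and 1.94 (1.55 to 2.44) in DCM replicate 1. Retn had 0.125 (0.0935 to 0.164) in CK replicate 2 and 0.477 (0.322 to 0.697) in SPM replicate 3. Each pair gives the extremes of 9 libraries, and in each the intervals, which cover counting error only, did not overlap.

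**Figure D2:**
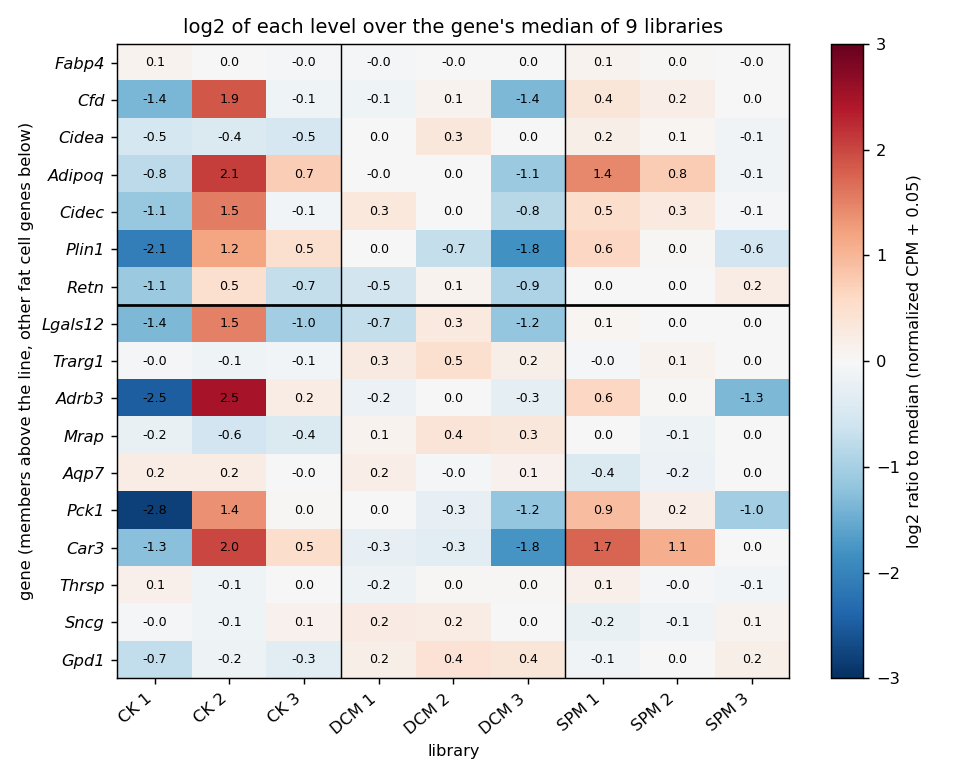
log2 of each gene's level in each library over its median of 9 libraries (normalized CPM + 0.05), for the 7 members with counts in every library above the line and for the 10 other fat cell genes with a median of at least 0.3 below it. Red cells in CK replicate 2 run through Cfd (1.87), Adipoq (2.08), Cidec (1.53), Adrb3 (2.47) and Car3 (2.0), while Fabp4, Thrsp and Aqp7 stay near 0.

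Other genes of the fat cell were of both kinds, variable and even. Of 14 genes listed as restricted to fat cells 13 were in the table. Car3, a carbonic anhydrase abundant in fat, Pck1, which makes glycerol for triglyceride in fat, Adrb3, the adrenergic receptor of fat cells, and Lgals12, a galectin of the droplet, were highest in CK replicate 2. Car3 had 4.08, 39.5 and 14.1 normalized CPM in CK, 8.24, 7.82 and 2.84 in DCM and 33.2, 21.0 and 9.86 in SPM, and Pck1 had 1.18 in CK replicate 1 and 22.1 in CK replicate 2. The 3 genes of the list with the highest mean FPKM were even instead: Aqp7, a glycerol channel, at 47.1 to 73.4, Thrsp, a regulator of lipid synthesis, at 31.1 to 38.4, and Sncg at 7.08 to 9.75. In CK replicate 2 Mrap, Gpd1 and Trarg1 were at 0.668, 0.845 and 0.88 times the median of the other libraries, most of which were diabetic. Within CK, Mrap and Trarg1 were lowest in replicate 2, whereas Gpd1 was highest there (6.11 against 4.02 and 5.38). The rest stayed at no more than 1.004 normalized CPM: Slc7a10 was highest in CK replicate 2, Klb in SPM replicate 1 and Acvr1c in DCM replicate 2.

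Over the 9 libraries the gene whose log2 level was most like that of Adipoq, members aside, was Car3 (Pearson r = 0.977, Spearman rho = 0.933, n = 9 libraries), among 12897 genes. It was followed by Mycl (0.949), Epc1 (0.942), Slc7a6os (0.941), Ntm (0.923), Cwc25 (0.917), Cyp2e1 (0.913), Gm11476 (0.899), Med21 (0.892) and Abca1 (0.891). Only 3 of these 10 remained among the 10 most like Adipoq without CK replicate 2, and 4 with Spearman's rho. Among the members r with Adipoq was 0.943 for Plin1, 0.917 for Cfd, 0.915 for Cidec, 0.708 for Retn, 0.362 for Ucp1, 0.257 for Fabp4 and -0.123 for Cidea. Without CK replicate 2 it was 0.925, 0.842, 0.836, 0.513, -0.088, 0.071 and 0.181 in that order. The genes most like Cidea were Maff (0.973), Adcy5 (0.965), Nudt8 (0.964), Fbp2 (0.961) and Csnk1e (0.961), and r of the other members with Cidea was -0.567 to 0.239. Without CK replicate 2 that range was -0.515 (Fabp4) to 0.612 (Retn), with Cidec at 0.502 and Cfd at 0.451. All points share their libraries, and without CK replicate 2 r of the 10 genes with Adipoq was 0.820 to 0.982.

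Side by side, the lung and liver markers did not follow the fat genes in every library. The summed level of Adipoq, Cfd, Plin1 and Cidec was 15.4, 136.6 and 40.8 in CK, 38.1, 40.1 and 15.9 in DCM and 57.4, 47.0 and 37.7 in SPM. CK replicate 2 was highest in fat and lung genes. SPM replicate 1 was highest in liver genes, with Alb, or albumin, at 247.5, and second in fat genes. The sum of 10 mesothelial markers, the cells that cover the heart, was 70.9, 89.9 and 125.4 in CK, 118.3, 69.4 and 60.6 in DCM and 53.0, 96.6 and 132.8 in SPM, and that of 9 lymphocyte markers was 26.0, 19.1 and 8.98 in CK, 11.8, 4.50 and 7.82 in DCM and 5.76, 7.53 and 8.82 in SPM. Fibroblast markers summed to between 5507 and 5751 in CK, between 4859 and 5403 in DCM and between 4526 and 4970 in SPM, and skeletal muscle markers to 24.2 to 43.6, 15.2 to 18.7 and 13.6 to 14.3. Most of each sum was 1 gene: Gsn had 3609 of the fibroblast sum and Mybpc2 41.2 of the skeletal muscle sum in CK replicate 1. The fibroblast markers did not move together, as 4 of 9 were called as lower in DCM compared to CK, beside 2.31% of all genes. Col3a1 fell by 1.54 on the log2 scale (adjusted p = 8.85e-07 by edgeR). Their part in the differences of the fat genes was not tested.

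**Figure D3:**
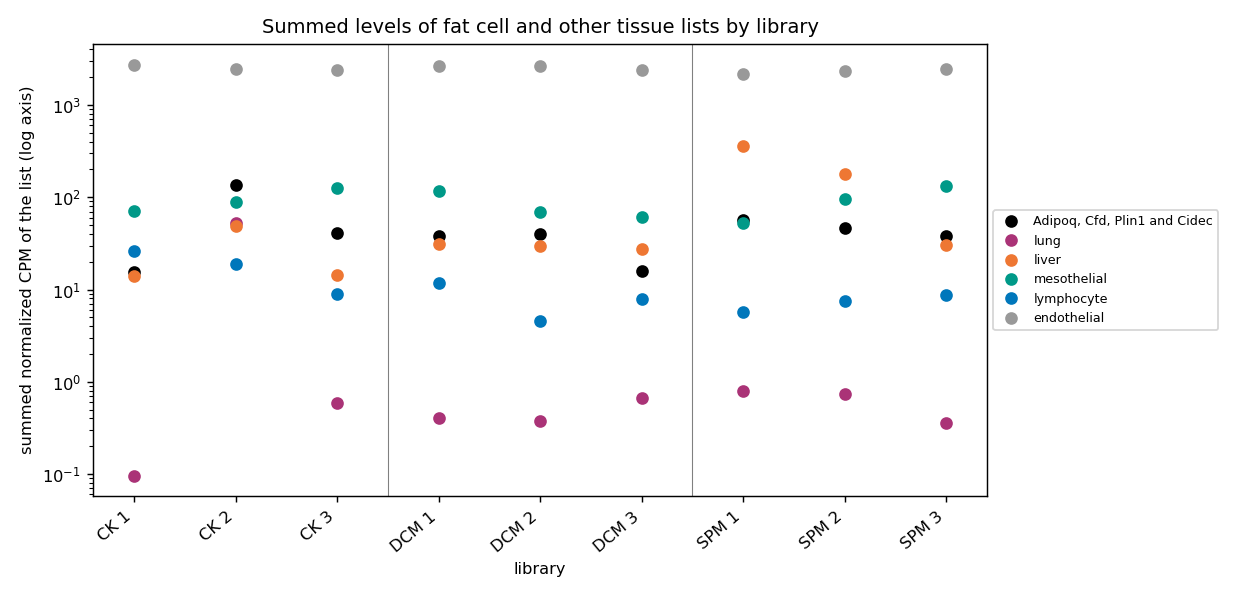
Summed normalized CPM per library, on a log axis, of Adipoq, Cfd, Plin1 and Cidec together and of lists of lung, liver, mesothelial, lymphocyte and endothelial markers. Fat and lung genes peak in CK replicate 2 (136.6 and 52.3), liver genes peak in SPM replicates 1 and 2 (363.7 and 180.5), and endothelial genes stay between 2195 and 2746.

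Between the groups, 1 of the 7 members tested was called in DCM compared to CK. Of the 7, 1 was higher and 6 were lower, and their median was -0.63 on the log2 scale against -0.002 over all genes tested. Without CK replicate 2 the tally turned to 4 higher and 3 lower with a median of 0.28, and without DCM replicate 3 the median was -0.20, over 8 members. At an unadjusted p under 0.05, 2 of the 7 passed (Cidea and Adipoq), beside 24.6% of all genes. The adjusted p alone was passed by 10.4% of all genes and 1 member, and DESeq2 also called 1. Over all genes 46.7% of the calls were higher, and 33.5% with limma on log2(FPKM + 0.1). Without CK replicate 2 the count of called members stayed at 1. It rose to 4 without CK replicate 1, with Adipoq, Cfd and Plin1 lower, and to 5 with no filter on low counts, where Adipoq, Cfd, Plin1 and Cidec were called as lower (adjusted p = 4.62e-07, 5.61e-09, 0.00117 and 0.0412 by edgeR). Their log2 fold changes stayed at -1.42, -1.06, -1.05 and -0.63 with no filter, where 857 of 22105 genes were called. By DESeq2 the adjusted p of these 4 genes was 0.32 to 0.744.

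For SPM compared to DCM edgeR called none of the 7, where 2.70% of genes were called as higher, 0.89% as lower and 16.6% passed the adjusted p alone. Of the 7, 6 were higher, with a median of 0.51 against 0.006 over all genes, 1 had an unadjusted p under 0.05 (Adipoq) beside 34.6% of all genes, and DESeq2 called Adipoq. The median was 0.20 without DCM replicate 3. The count stayed at 0 without SPM replicate 2, where the calls over all genes dropped to 0.283% higher and 0.0944% lower, and without DCM replicate 2 they were 0.327% and 0.16%. Neither edgeR nor DESeq2 called a member in SPM compared to CK, where 5.08% of genes were called as higher and 4.12% as lower by edgeR, and 2.90% and 2.28% without SPM replicate 2. There 3 members were higher and 4 lower, their median was -0.26 against 0.002 for all genes, and Cidea alone had an unadjusted p under 0.05, beside 40.9% of all genes. Without CK replicate 2 Adipoq, Cfd, Plin1 and Cidec changed sign, so that all 7 were higher with a median of 0.66, and without SPM replicate 3 the median was 0.009. The comparisons share libraries and are not independent of each other.

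**Figure D4:**
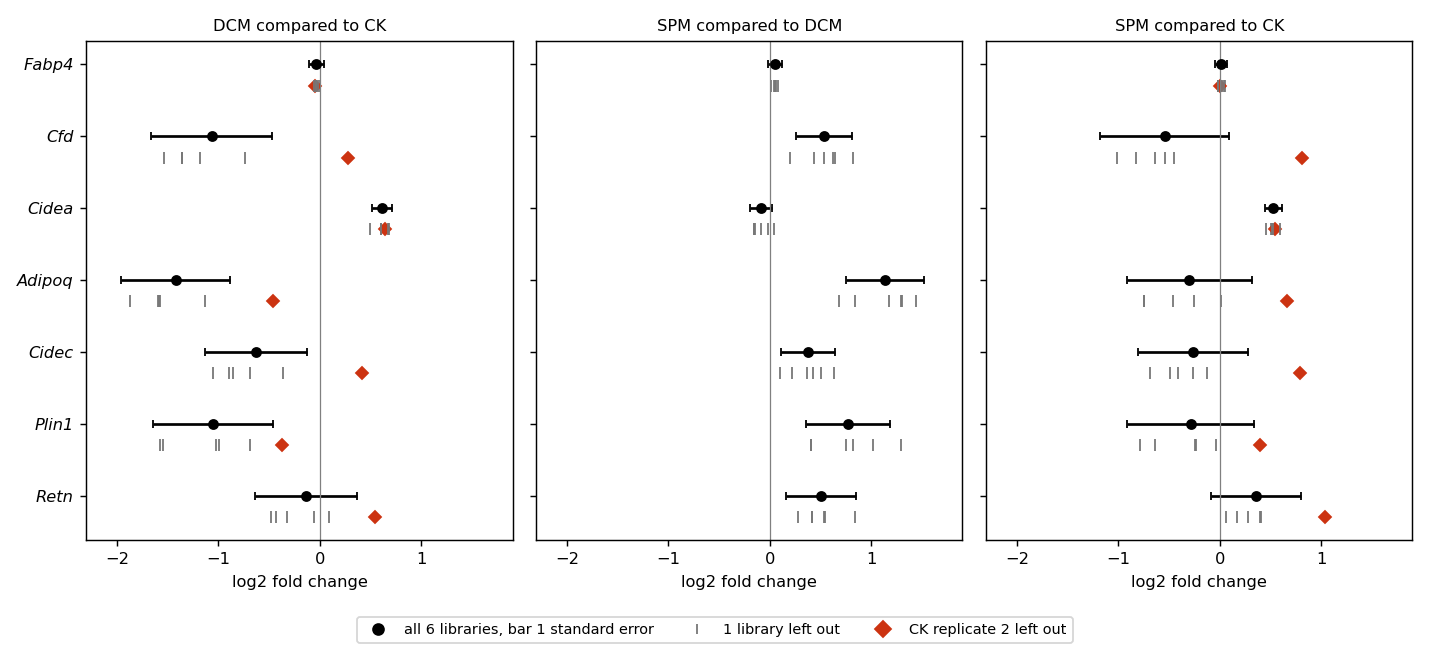
log2 fold change of the 7 tested members in the 3 comparisons, with black points and bars for the estimate and 1 standard error from 6 libraries, grey ticks for 1 library left out and red diamonds for CK replicate 2 left out. Cfd and Cidec cross 0 in DCM compared to CK without CK replicate 2, to 0.28 and 0.42, whereas Cidea stays at 0.64.

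The 3 genes of each wider fat metabolism list with the highest mean FPKM over the 9 libraries had counts in every library. Among relatives of the members Fabp3, the fatty acid carrier of heart muscle, had 5123 FPKM, Plin5 had 124.7 and Plin3 had 75.8, against 212.5 for Fabp4. FPKM depends on the deposited length, 4231 bases for Fabp4. In normalized CPM, which does not, Fabp3 had 3422 to 5337 and Fabp4 865.5 to 960.4. Lpl, which frees fatty acids from lipoproteins, had 733.6, Pnpla2 359.8 and Dgat2, which completes triglyceride, 184.4. Of the brown and beige fat list, Cox8b, a respiratory chain subunit, had 542.7, Cox7a1 384.9 and the potassium channel Kcnk3 71.1. The mean FPKM of the lipogenic enzymes was 41.9 for Me1, 17.1 for Acly and 12.3 for Fads1, that of the regulators was 45.6 for Klf15, 26.9 for Rxra and 14.2 for Cebpd, and that of the adiponectin receptors was 82.1 for Adipor1, 57.4 for Cdh13 and 36.1 for Adipor2.

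The same lists were read in the same fits. In DCM compared to CK, 2.03% of all genes were called as higher and 2.31% as lower. Of 9 tested genes listed as restricted to fat cells 2 were called, both higher: Mrap, a partner of melanocortin receptors, by 0.69 (SE 0.148, adjusted p = 0.0107 by edgeR) and Gpd1, which supplies glycerol phosphate, by 0.71 (SE 0.173, adjusted p = 0.0206). Of the 9, 4 were higher and 5 lower. Car3, Pck1 and Adrb3, highest in CK replicate 2 as Adipoq was, had -1.62, -0.73 and -1.49 and were not called (adjusted p = 0.108, 0.522 and 0.331). Mrap was not called without CK replicate 2 (adjusted p = 0.0552), and Gpd1 was not called without CK replicate 1, DCM replicate 2 or DCM replicate 3. Mrap had 6.85, 5.41 and 5.90 normalized CPM in CK and 8.64, 10.49 and 10.2 in DCM, so CK replicate 2 was lowest. Of 10 adipogenic regulators Cebpd, an early factor of fat cell differentiation, rose by 0.64 (adjusted p = 0.0029, and 0.51, under the fold change, without CK replicate 1), and Pparg, the master regulator, had a log2 fold change of 0.008 (adjusted p = 0.981). Of 12 genes of triglyceride synthesis and lipolysis, Pnpla2, the first lipase of the droplet, rose by 0.70 (adjusted p = 0.000191) and Angptl4, an inhibitor of lipoprotein lipase, fell by 0.74 (adjusted p = 0.00103). None of the 10 lipogenesis genes and none of the 4 adipokine receptors were called by edgeR, with 4 and 1 at an unadjusted p under 0.05, which 24.6% of all genes passed.

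Of 11 tested relatives of the members, 2 were called as higher and 2 as lower in that comparison, beside 2.03% and 2.31% of all genes. The perilipins Plin4 and Plin5, which coat droplets in muscle, rose by 0.72 (adjusted p = 0.000444) and 0.61 (adjusted p = 0.0017) in edgeR, from 288.1 to 325.6 normalized CPM in CK to 460.4 to 569.2 in DCM for Plin4. Ucp3, the uncoupling protein of muscle, fell by 0.61 (adjusted p = 0.00145), and Retnla, a relative of resistin made by macrophages, fell by 0.90 (adjusted p = 0.0123). Without CK replicate 2 the calls of Plin5 and Ucp3 were lost at 0.54 and -0.55, as were that of Plin5 without DCM replicate 2 (0.51), that of Ucp3 without DCM replicate 3 (-0.51) and that of Retnla without DCM replicate 2 or 3 (adjusted p = 0.0658 and 0.0532). Of 10 tested brown and beige fat genes 1 was called, Dio2, which activates thyroid hormone, lower by 1.16 (adjusted p = 0.043) and not called without CK replicate 2 or 3 or DCM replicate 2 or 3 (adjusted p = 0.0958 to 0.153).

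Between SPM and DCM, 2.70% of all genes were called as higher and 0.89% as lower. Of 10 tested genes listed as restricted to fat cells 1 was called, Car3, which rose by 1.76 (SE 0.426, adjusted p = 0.0246 by edgeR) and was not called without SPM replicate 2 or any 1 DCM library (adjusted p = 0.0629 to 0.0934). Cebpb fell by 1.01 (adjusted p = 0.049), Angptl4 fell by 0.94 (adjusted p = 0.0184), Lepr, the leptin receptor, rose by 0.85 (adjusted p = 0.0493) and Retnlg, a resistin relative of myeloid cells, rose by 1.22 (adjusted p = 0.038). Each of these 4 lost its call without SPM replicate 2, Cebpb also without any other library (adjusted p = 0.0525 to 0.181 in all), Lepr without any other but SPM replicate 3 (0.102 to 0.182), Angptl4 without any 1 DCM library (0.0518 to 0.0736), and Retnlg without DCM replicate 1 or 2 or SPM replicate 1 (0.0598 to 0.15). Plin2, the perilipin of most tissues, fell by 0.71 (adjusted p = 0.00786), from 147.2 to 178.7 normalized CPM in DCM to 89.3 to 108.4 in SPM, and kept its call with each library left out. None of the 10 tested lipogenesis genes and none of the 10 brown and beige fat genes were called by edgeR, with 7 and 5 at an unadjusted p under 0.05, which 34.6% of all genes passed.

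For SPM compared to CK, 5.08% of all genes were called as higher and 4.12% as lower. None of the 10 tested genes listed as restricted to fat cells were called by edgeR, with 3 at an unadjusted p under 0.05, which 40.9% of all genes passed. Of the brown and beige fat genes Ppargc1a, a coactivator of mitochondrial genes, rose by 0.76 (adjusted p = 0.00129), whereas Cox7a1, a respiratory chain subunit of heart and brown fat, and Slc36a2, an amino acid transporter, fell by 0.82 (adjusted p = 0.000406) and 1.01 (adjusted p = 0.00036). Cox7a1 had 219.6 to 244.1 normalized CPM in CK and 124.2 to 140.6 in SPM, so it was present where Ucp1 had no count. Cebpd and Retnlg rose by 0.76 and 2.10 (adjusted p = 0.00479 and 0.00168), and Angptl4, Gpam, Ucp3 and Retnla fell by 1.69, 0.69, 0.97 and 1.57 (adjusted p = 0.00186 to 0.00785). With CK replicate 2 and SPM replicate 2 both left out, Gpam, Ucp3 and Retnla were not called (adjusted p = 0.0519 to 0.0831), nor was Gpam without SPM replicate 1 (-0.53). Zic1, Lhx8, Elovl3 and Otop1 of the brown fat list stayed at no more than 0.169 normalized CPM in every library.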

How the data were processed

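RNA was measured in 9 libraries, assigned to CK, DCM and SPM by their deposited titles. The authors deposited whole-number counts per gene, and FPKM values that equal the count divided by a gene length and by the library total (largest relative deviation 8.6e-13). Reads were filtered with fastp 0.18.0. The submitters' processing notes name Bowtie 0.12.2, mm8 and mm9, while the counting tool is not given in the sources used here, nor is its use of strand. Identifiers matched GENCODE M21 (GRCm38) for 22820 genes, and 31 stayed unnamed. Coordinates of genes are those of GENCODE M21, and promoters are from RefSeq. Some listed genes without a row were not used here.

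The members and gene lists were chosen with earlier results of these data known. Members are given in full, with the 3 genes of highest mean FPKM of each other list, called genes of the fat lists (up to 5 per list), and the 10 and 5 genes most like Adipoq and Cidea by Pearson's r of log2(CPM + 0.5) among genes with at least 1 CPM in 3 libraries. Other genes were named after their values were seen: Pck1, Adrb3, Lgals12, Trarg1, Slc7a10, Klb, Acvr1c, Pparg, Zic1, Lhx8, Elovl3, Otop1 and B430212C06Rik.

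Counts were compared in pairs of groups (6 libraries each) by edgeR 4.0.16 (quasi-likelihood, R 4.3.3) on genes kept by filterByExpr, scaled by TMM, and p-values were adjusted by Benjamini-Hochberg over all genes tested. The steps were run on simulated data with 200 changed genes, for DCM compared to CK, SPM compared to DCM and SPM compared to CK in that order. They called 77.7%, 78.1% and 73.4% of the genes changed at least 2-fold. Of those changed less than 2-fold they called 70.0%, 74.4% and 54.2%, and they called 7, 9 and 7 unchanged genes. Alternatives were DESeq2 1.42.0, RLE, other filters, no fold-change limit, all libraries in 1 fit, a replicate block, limma 3.58.1 on log2(FPKM + 0.1) and log2(FPKM + 1), a GC offset, totals without mitochondrial genes and each library left out. Leaving out CK replicate 2 with SPM replicate 2 was added after the data had been seen.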

Additional observations from a re-analysis of the deposited data

How the results depend on the processing

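For DCM compared to CK the number of called members was 1, and 0 with limma on log2(FPKM + 0.1) and on log2(FPKM + 1), 5 with no low-count filter and 0 to 4 over the libraries left out. For SPM compared to DCM it was 0, and 1 with DESeq2 (Adipoq), 2 with no filter, and 0 to 1 over the libraries left out. For SPM compared to CK it was 0, and 1 with no filter (Ucp1), with no fold-change limit (Cidea) and with the GC offset (Cidea), and 0 to 1 over the libraries left out. The causes were not tested.

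Replicate numbers did not pair the libraries: residuals of libraries with the same number correlated at -0.0746 to 0.205, those of other numbers at -0.284 to 0.217, and 3 of 9 libraries correlated best with their own number. With the replicate block the called members were 1, 3 (Adipoq, Cfd and Plin1) and 0 in the order above, and the log2 fold change of Cidec in SPM compared to CK turned to 0.054.

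Signs that turned belonged to changes that were not called. Over the libraries left out in DCM compared to CK, Cfd ranged from -1.53 to 0.28, Cidec from -1.05 to 0.42 and Retn from -0.48 to 0.54, each with the highest value without CK replicate 2, and Fabp4 from -0.060 to 0.0064. Retn was 0.088 without DCM replicate 3. In SPM compared to DCM, Cidea ranged from -0.16 to 0.038 (without DCM replicate 2), and with the GC offset Cidea and Fabp4 turned to 0.083 and -0.16. In SPM compared to CK, Adipoq ranged from -0.75 to 0.66, Cfd from -1.01 to 0.81, Plin1 from -0.78 to 0.39 and Cidec from -0.69 to 0.79, highest without CK replicate 2, and without SPM replicate 2 as well they had 0.71, 0.82, 0.44 and 0.79. There Fabp4 ranged from -0.017 to 0.049 and B430212C06Rik from -0.17 to 0.027. With limma on log2(FPKM + 0.1) Plin1, Cidec and Fabp4 turned to 0.022, 0.0395 and -0.077, and Fabp4 had -0.077 with limma on log2(FPKM + 1) and -0.18 with the GC offset.

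With mitochondrial genes left out of the totals the members' share was 0.1201%, 0.132% and 0.114% in CK, 0.114%, 0.110% and 0.113% in DCM and 0.130%, 0.123% and 0.117% in SPM. Depth limits Lep and Ucp1, with at most 37 counts in a library, and 3 libraries per group limit the rest. Over all genes, 625 were called in DCM compared to CK (1497 with no fold-change limit, 408 with limma on log2(FPKM + 1), 427 to 704 over the libraries left out), 521 in SPM compared to DCM (2410, 142, 56 to 791 with the lowest without SPM replicate 2, and 125 with the GC offset) and 1342 in SPM compared to CK (3989, 683, 771 to 1589, and 408 without CK replicate 2 and SPM replicate 2). With limma on log2(FPKM + 0.1) the share of higher calls moved from 55.2% to 39% in SPM compared to CK.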
